A study of Homo sapiens with 8 samples.

Results

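RNA bound by RBFOX2 was mapped by eCLIP, in which protein and RNA are crosslinked by ultraviolet light, the protein is immunoprecipitated and the RNA that comes with it is sequenced. The sites described here are all 4227 rows of the single peak list the authors deposited for RBFOX2, of 7442 peaks in the series. The remaining 3215 belong to a list for TIA1, which binds U-rich stretches of RNA. The RBFOX2 list was made from 2 clip libraries, immunoprecipitated with an anti-HA tag antibody, and 2 input libraries, for which the labels give no immunoprecipitating antibody. The TIA1 list has the same make-up, with 2 clip and 2 input libraries.

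All libraries came from HEK293T, an immortalised human embryonic kidney line. Per the labels, cells were crosslinked with 600 mJ, and no drug or time course is named. The labels read here do not say how the tag was placed on the protein, or whether the protein was made from its own gene or from a construct. One protocol text names beads bound to TIA1 for the RBFOX2 libraries too. The kind of replicate is not settled by the labels, which use both "technical" and "biological". The list holds 1 row per peak for both replicates together, so the values below have no spread between libraries.

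RBFOX2 belongs to a small family of RNA-binding proteins that read the element GCAUG through an RNA recognition motif. It is best known as a regulator of alternative splicing: binding in the intron downstream of an exon is linked to inclusion of that exon, and binding upstream to its skipping. Members of the family have also been found on the 3′ ends of messenger RNAs, with roles in RNA stability. Binding to clusters of neighbouring elements is a known feature of such proteins. Gene names, exons, introns, GCAUG elements and the bound sequences were not analysed here, because the peaks are in hg19 coordinates and the reference at hand was of GRCh38. Sites are named by position, 1-based, and directions along RNA are read on the strand of the peak.

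RBFOX2 peaks were short, and many lay edge to edge. The 4227 peaks covered 310.6 kb, with a median width of 70 bases (quartiles 37 and 101, range 2 to 347). No peak overlapped another on its strand. Of 4181 gaps between neighbouring peaks of a strand and chromosome, 1133 were 0 bases, 129 were 1 to 10 bases, 73 were 11 to 20 and 143 were 21 to 50. At the other end, 1800 gaps, 43.1%, were longer than 50000 bases. The 903 gaps of 51 to 50000 bases, 21.6%, were densest per base at the short end, since the classes used here widen with length. They numbered 131 of 51 to 100 bases, 132 of 101 to 200, 170 of 201 to 500 and 98 of 501 to 1000. A further 128 were of 1001 to 5000 bases, 48 of 5001 to 10000 and 196 of 10001 to 50000. Gaps of 0 bases and gaps over 50000 bases together outnumbered all gaps of other lengths.

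Peaks on a strand no more than 50 bases apart were joined into sites. Close to that limit, 40 gaps of 41 to 50 bases were joined and 23 gaps of 51 to 60 bases were not. Joining gave 2749 sites, of which 1974 held 1 peak, 465 held 2, 155 held 3 and 66 held 4. Sites of 2 or more peaks numbered 775, or 28.2% (95% Clopper-Pearson interval 26.5 to 29.9%), yet they held 2253 peaks, 53.3% of the list. Only 89 sites, 3.24%, held 5 or more peaks. These intervals, here and below, cover counting error only, and neighbouring peaks are not independent.

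**Figure D1:**
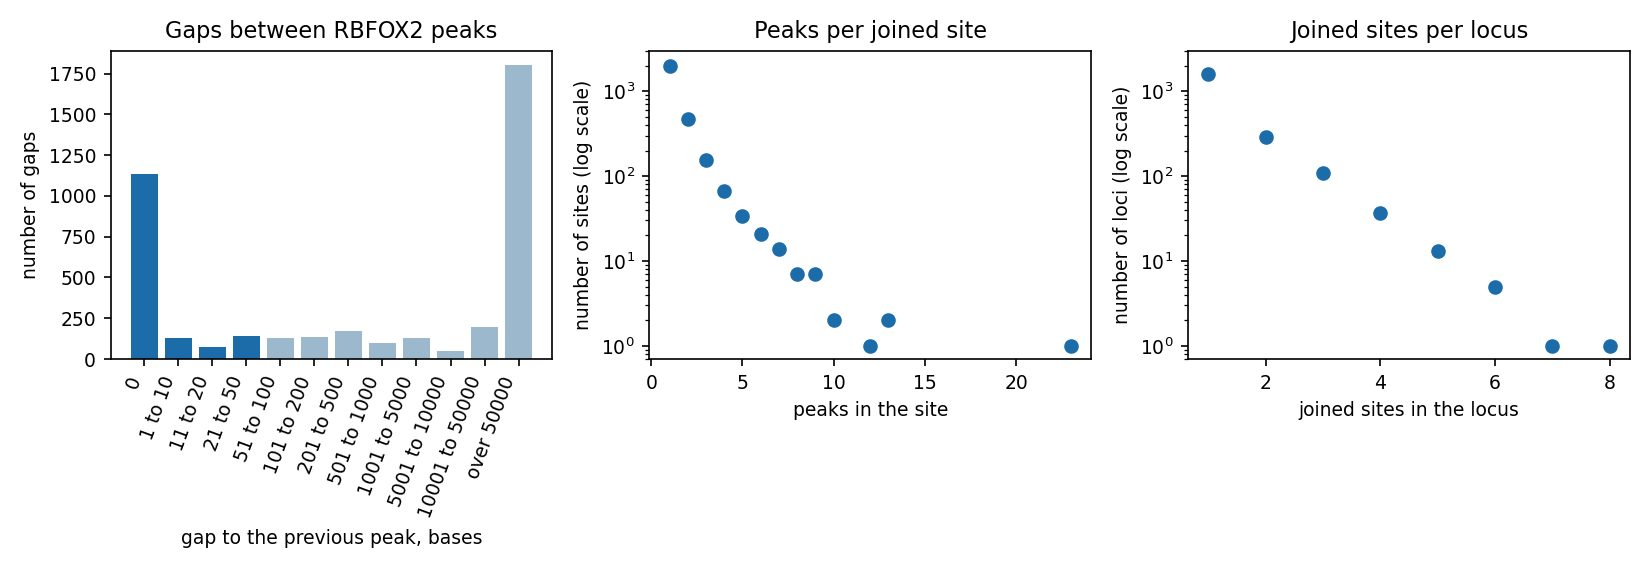
Left, number of gaps between neighbouring RBFOX2 peaks on a strand by length in bases, dark where the peaks were joined; middle, number of joined sites by peaks per site; right, number of loci by joined sites per locus (log scales on the vertical axes of both). The 1133 gaps of 0 bases and the 1800 gaps over 50000 bases stand above all classes between them, and counts fall from 1974 sites of 1 peak to 1 site of 23.

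Sites made of several peaks were wider than sites of a single peak, and nearly solid. Joining peaks over gaps of at most 50 bases favours both by construction. Sites of 1 peak had a median width of 89 bases (quartiles 62 and 119). Sites of 2 or more peaks had a median of 154 bases (105.5 and 216.5), and the median site of this kind was covered by peaks over 100% of its width (first quartile 94.1%). Narrow peaks sat mainly inside such sites: of 414 peaks under 20 bases, 317, or 76.6% (95% Clopper-Pearson interval 72.2 to 80.6%), belonged to a site of 2 or more peaks. Among all peaks of the list the share was 53.3%. Most of the narrowest rows of the list thus lay in longer joined stretches.

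The fold of clip over input that the authors deposited for each peak varied within sites. Among the 775 sites of 2 or more peaks, the deposited log2 fold differed between the lowest and the highest peak by a median of 0.44 (quartiles 0.21 and 0.80). From one peak to the next within a site, the median step was 0.28 over 1478 neighbouring pairs. Of 310 sites with 3 or more peaks, the peak of highest deposited fold was an inner one in 169, the first from the 5′ end in 69 and the last in 72. Sites of more than 3 peaks have several inner peaks, which by itself raises the inner count, and the part of this was not tested. The widest peak stood at an end more often than inside: it was the first in 114 sites, the last in 114 and an inner one in 76, with 6 ties. No fold below 3 on the log2 scale is in the list, so these ranges are cut off at that level.

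The 10 sites with most peaks show how long stretches were divided. A plus-strand site on chromosome X, from 77359333 to 77359820, held 23 peaks in 488 bases, with a median peak width of 14 bases and 93.6% of its width covered. Its deposited log2 fold fell and rose more than once. It was 3.83 in the first peak, fell to 3.08 in the peak at 77359555 to 77359563 and rose to 4.32 at 77359639 to 77359648. From there it fell to 3.16 at 77359679 to 77359707, was 3.48 in the peak next to the last and 3.33 in the last. Next by peaks came a plus-strand site on chromosome 12, from 110719076 to 110719585, which held 13 peaks in 510 bases and log2 folds from 3.16 to 4.07. Both sites stood alone, with no other joined site within 10 kb on the strand.

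On the minus strand of chromosome 2, the site from 47387350 to 47387834 held 13 peaks over 485 bases and was also alone in its locus. Read 5′ to 3′, its deposited log2 fold began at 5.36 over the first 60 bases, went down to 3.64 at 47387605 to 47387648 and reached 5.17 in the peak next to the last. On the plus strand of chromosome 19, the site from 47112555 to 47112939 held 12 peaks in 385 bases. Its deposited log2 fold ranged from 4.24 to 6.19, the highest value of the RBFOX2 list, found in a 7-base peak between neighbours at 4.54 and 5.07. High and low peaks thus lay side by side within a site.

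The other 6 of these sites held 9 or 10 peaks, with the 4 widest taken of 7 sites of 9 peaks. On chromosome X the plus-strand site from 114884127 to 114884440 ran from a deposited log2 fold of 5.39 in its first peak and 5.87 in its second down to 3.95 and 4.26 in its final pair. On chromosome 12 the plus-strand site from 110784647 to 110784984 was flatter: its first peak was the lowest and the remaining 9 lay between 4.06 and 4.43. On the minus strand of chromosome 7, the site from 27180796 to 27181363 had its highest deposited log2 fold, 5.35, in the fifth of 9 peaks. The other sites were on chromosome 3 (149683358 to 149683851, minus strand, 10 peaks), chromosome 17 (8063228 to 8063616, minus strand, 9 peaks) and chromosome 14 (50359974 to 50360329, plus strand, 9 peaks). The lists hold no read counts, so how far such differences between peaks of a few bases exceed counting error is unknown.

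Width and number of peaks did not single out the same sites. The widest site was on the minus strand of chromosome 9, from 84303393 to 84304099, with 707 bases and 7 peaks. It was followed by chromosome 3 (57742284 to 57742910, plus strand, 627 bases, 6 peaks) and chromosome 12 (65090417 to 65091002, plus strand, 586 bases, 3 peaks). The chromosome 7 site named above came next, and chromosome 14 (74180544 to 74181079, minus strand, 536 bases, 6 peaks) completed the 5. The chromosome 12 site was made of peaks of 142 to 215 bases. In the chromosome X site of 23 peaks, by contrast, no peak was wider than 73 bases.

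Among sites of 1 peak, the widest was on the minus strand of chromosome 4, from 103265644 to 103265990, with 347 bases. The next were on chromosome 19 (40030402 to 40030737, 336 bases), again chromosome 4 (114682613 to 114682909, 297 bases), chromosome 12 (39836753 to 39837043, 291 bases) and chromosome 9 (138852910 to 138853198, 289 bases). All 5 were on minus strands and alone in their loci. Their deposited log2 folds lay between 3.05 and 3.68.

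Sites were next grouped into loci by chaining joined sites no more than 10 kb apart on a strand. A locus stands in for a gene here, and it can split a long gene or join neighbours. The 2749 sites fell into 2042 loci, and most loci had a single site: 1587, or 77.7% (95% Clopper-Pearson interval 75.8 to 79.5%). In 1232 loci, 60.3%, the whole locus was 1 peak, and in 355 loci it was 1 site made of several abutting or close peaks. A further 290 loci had 2 sites, 108 had 3, 37 had 4 and 13 had 5. Only 5 loci had 6 sites, 1 had 7 and 1 had 8. Sites in loci of 2 or more made up 42.3% of all sites (40.4 to 44.1%). The 20 loci with most sites held 110 sites, 4.0%, so no small set of loci dominated the list.

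Where sites shared a locus, they mostly lay close. The 707 gaps between neighbouring sites of a locus had a median of 297 bases (quartiles 130 and 963.5). The 165 loci with 3 or more sites had a median span of 1602 bases (quartiles 852 and 3476, longest 15555), and peaks covered a median of 23.5% of that span. Of these loci, 96, or 58.2% (95% Clopper-Pearson interval 50.3 to 65.8%), spanned at most 2 kb, and 28, or 17.0% (11.6 to 23.6%), spanned more than 5 kb. The share spanning at most 2 kb depends on the rules: it was 38.4% (78 of 203 loci) with chaining within 50 kb, which lengthens loci by construction, and 48.8% (61 of 125) with peaks joined within 100 bases. Whether such stretches lay in exons or introns was not analysed here.

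The locus with most sites was on the plus strand of chromosome 15, from 81293348 to 81294980. It held 8 sites and 16 peaks in 1633 bases, and peaks covered 50.7% of it, with gaps of only 54 to 193 bases. From its 5′ end the sites began at 0, 156, 543, 858, 1008, 1170, 1372 and 1536 bases. The second site, of 310 bases and 7 peaks, held 37.4% of the covered bases. The fourth was a lone peak of 4 bases. The highest deposited log2 folds, 4.78, 4.65 and 4.59, were in the last, the second and the sixth site, and the first had 3.71.

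The locus on the minus strand of chromosome 1, from 59247515 to 59249571, held 7 sites and 26 peaks in 2057 bases. Its sites formed a group at the 5′ end and a thin middle, followed by a single site of several peaks at the 3′ end. The first 3 sites lay within 783 bases of the 5′ end and held 17 peaks. Then came 3 sites of 1 peak each, 48, 26 and 13 bases wide, and after a gap of 514 bases the last site with 6 peaks. The second site, of 9 peaks, reached a deposited log2 fold of 5.02, the last site 4.92, and the thin middle sites 3.65, 3.82 and 3.68.

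The locus on the plus strand of chromosome 4, from 77955953 to 77957961, was nearly as short, with 6 sites and 11 peaks in 2009 bases, but its peaks were weighted to the 3′ end. The first 4 sites held 1 peak each. The fifth held 2 and the sixth held 5, and their highest deposited log2 folds were 4.63 and 4.89, against at most 4.19 in the first 4. No TIA1 site lay in the span of this locus.

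The next 4 loci by number of sites, all with 6, were of another kind. On the plus strand of chromosome X, from 153657034 to 153672588, sites lay at the start of a 15.6 kb span, at 7618 bases and then at 14190, 14408, 14606 and 15458 bases, so 4 of 6 lay near its 3′ end. On the minus strand of chromosome 1, the locus from 19490925 to 19505662 had sites at 0, 4150, 4721, 6075, 14271 and 14728 bases, 9 to 94 bases wide. On the plus strand of chromosome 14, from 90863376 to 90874055, sites lay at 0, 193, 3033, 7797, 8233 and 10618 bases. Peaks covered 3.69%, 1.77% and 4.21% of these spans, far less than in the 3 compact loci. Their deposited log2 folds did not exceed 3.78, whereas the compact loci reached 4.78 to 5.02.

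The fourth, on the minus strand of chromosome 1 from 19464534 to 19475106, lay 15818 bases from the other chromosome 1 locus of 6 sites. With chaining within 50 kb, both became part of a single locus from 19449539 to 19523643, which then led the list with 15 sites and 20 peaks over 74.1 kb. Its 582 covered bases were fewer than the 828 of the chromosome 15 locus. The number of sites at this position therefore depends on the chain length, while the chromosome 15 locus and the compact loci on chromosomes 1 and 4 had the same number of sites at 1, 5, 10 and 50 kb.

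The remaining 8 of the 15 loci with most sites had 5 each, and were those with most peaks, then most covered bases, among 13 loci of 5 sites. Compact loci among them were those on the plus strand of chromosome 3, from 51428736 to 51429980 (1245 bases, 45.5% covered) and from 71803746 to 71805219 (1474 bases, 29.8% covered). The loci on chromosome 11 (65622348 to 65625650, minus strand), chromosome 12 (74931650 to 74935207, plus strand), chromosome 1 (2238017 to 2241492, plus strand) and chromosome 17 (46698560 to 46703550, minus strand) spanned 3.30, 3.56, 3.48 and 4.99 kb. In the chromosome 12 locus the last site alone held 52.5% of the covered bases and the highest deposited log2 fold, 6.07. The other 4 sites there had 3.33 to 4.14.

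The 2 longest of these loci ended in a group of sites. On the plus strand of chromosome 17, from 56160829 to 56167830, the first site was followed by a gap of 6295 bases and then 4 sites close together, at 6359, 6582, 6791 and 6958 bases. On the minus strand of chromosome 10, from 120927286 to 120938317, sites lay at 0, 1652, 4213, 10638 and 10772 bases, and the last held 47.3% of the covered bases.

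A weight toward the 3′ end was not general. In the 165 loci with 3 or more sites, the best-covered site was the last from the 5′ end in 53, or 32.1% (95% Clopper-Pearson interval 25.1 to 39.8%), the first in 40, or 24.2% (17.9 to 31.5%), and an inner one in 72, or 43.6%. Loci of more than 3 sites have several inner sites, which by itself raises the inner count. Among the 108 loci with exactly 3 sites, the best-covered site was the first in 32, the middle in 36 and the last in 40. The intervals for these 3 shares, 21.2 to 39.2%, 24.6 to 43.1% and 27.9 to 46.9%, overlap widely. These shares are of the same loci and were not tested against each other. Where in a locus the broadest RBFOX2 binding fell thus differed from locus to locus.

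Ranked by covered bases and not by number of sites, other loci came forward. A plus-strand locus on chromosome 10, from 72182269 to 72184118, came first, with 907 covered bases in 4 sites and 14 peaks. Its sites grew along the RNA, with 44, 184, 295 and 384 covered bases from 5′ to 3′. The chromosome 15 locus of 8 sites was second with 828 bases and the compact chromosome 1 locus followed with 776. A second chromosome 15 locus, on the minus strand from 70389173 to 70390075, had 711 covered bases in a span of 903, or 78.7%, the highest cover of the 165 loci with 3 or more sites. Another on this chromosome, on the plus strand from 96874256 to 96877588, had 704, of which 53.0% were in its first site.

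The loci that followed held 2 to 5 sites. That of the widest site, on chromosome 9 (84303393 to 84304178), had 665 covered bases, 96.7% of them in that site. On the plus strand of chromosome 19, from 47104542 to 47113643, 3 sites held 22 peaks and 656 covered bases. The first of these was 152 bases at the 5′ end, and 7861 bases further on came the site of 12 peaks and then one of 6. The loci on the minus strands of chromosome 17 (8063228 to 8064094) and chromosome 7 (135611641 to 135612659) packed 3 sites each into 867 and 1019 bases and had 625 and 621 covered bases. Between them stood the chromosome 17 locus of 5 sites already named, with 623.

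RBFOX2 sites were spread over 23 chromosomes and evenly over strands. Sites on plus strands numbered 1365, or 49.7% (95% Clopper-Pearson interval 47.8 to 51.5%). Chromosome 1 had the most sites, 298 in 228 loci, and chromosome 21 the fewest, 40 in 32 loci. Sites per locus ranged from 1.18 on chromosome 7 to 1.51 on chromosomes 14 and 20. Chromosome 20 had 9 loci of 3 or more sites among only 45 loci, and chromosome 9 had 3 among 89. Sites of several peaks made up between 20.5% of sites on chromosome 3 and 38.6% on chromosome 22. These shares rest on 40 to 298 sites each and were not tested against each other.

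**Figure D2:**
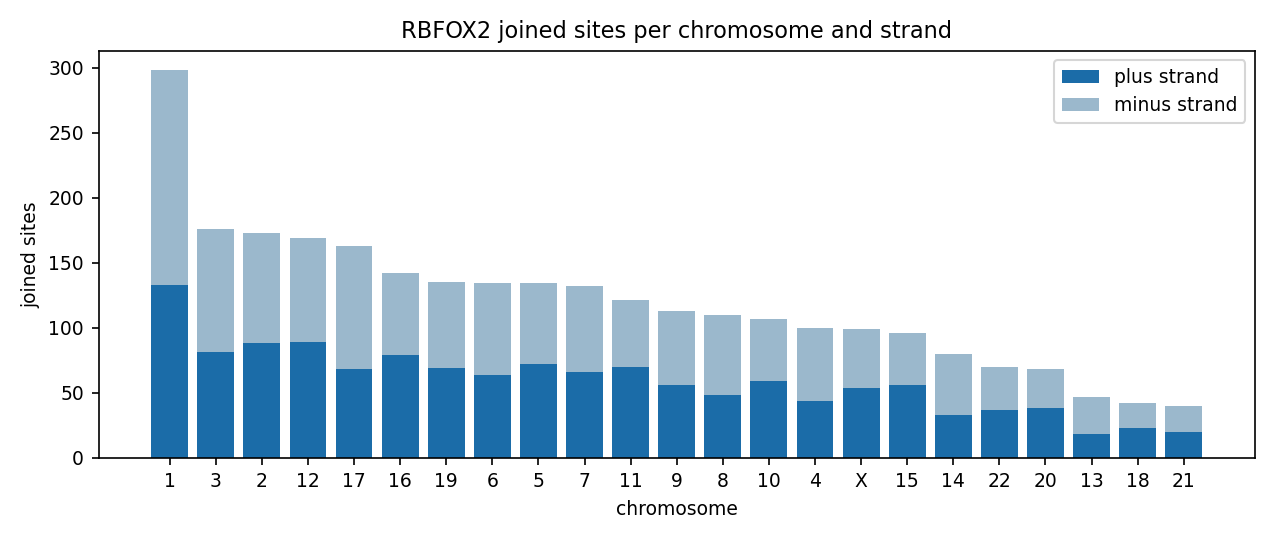
Number of RBFOX2 joined sites (vertical axis) per chromosome (horizontal axis, ordered by number), with plus-strand sites dark and minus-strand sites light. Chromosome 1 leads with 298 sites and both strands contribute on all 23 chromosomes.

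Binding on both strands of the same place was rare. Only 9 sites, 0.327%, had a site of the other strand within 1 kb. A single pair overlapped, on chromosome 12, with a plus-strand site from 98909836 to 98909911 and a minus-strand site from 98909846 to 98910144. Another plus-strand site lay just before them, from 98909483 to 98909628. The other facing pairs were on chromosomes 1, 5 and 17. These sites were named after their values were seen.

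Compared with TIA1, the RBFOX2 list held more sites of several peaks and more sites with neighbours. Sites of 2 or more peaks were 28.2% for RBFOX2 and 534 of 2413, or 22.1%, for TIA1, a difference of 6.06 percentage points (95% interval 3.69 to 8.41, Fisher's exact test, two-sided, adjusted p = 8.76e-07 over 2 tests). Sites in loci of 2 or more sites were 42.3% for RBFOX2 and 858 of 2413, or 35.6%, for TIA1, a difference of 6.71 points (4.05 to 9.36, Fisher's exact test, adjusted p = 8.76e-07). These tests compare 2 lists and treat sites as independent, which sites of one RNA are not, so the p-values are too small. The RBFOX2 list is also the longer, and the part of that in the second difference was not tested. Sites of several peaks were largely stretches cut into abutting peaks. With joining within 0 bases, 703 RBFOX2 sites, 22.7%, and 474 TIA1 sites, 18.6%, still held 2 or more peaks. The first difference thus counts rows per stretch and not separate binding events. The part of peak calling and of stretch width in it was not tested. The richest loci went the other way: the 20 loci with most sites held 6.71% of TIA1 sites and 4.0% of RBFOX2 sites, and 19 TIA1 loci had 6 or more sites, up to 12, against 7 RBFOX2 loci, up to 8. These values were not tested.

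Among loci with 3 or more sites, those of RBFOX2 were the shorter. Of the TIA1 loci with 3 or more sites, 27 of 95, or 28.4% (95% Clopper-Pearson interval 19.6 to 38.6%), spanned at most 2 kb, against 58.2% of the RBFOX2 loci. The difference was 29.8 points (95% interval 17.4 to 40.6, Fisher's exact test, two-sided, p = 5.29e-06, unadjusted), in a comparison chosen after the spans were seen. The test treats loci as independent and was run on the spans that prompted it, so no conclusion is drawn from its p-value. The median span of these loci was 7007 bases for TIA1 and 1602 for RBFOX2. They held a mean of 4.55 sites in TIA1 and 3.53 in RBFOX2, and the part of that in the spans was not tested. Over all loci of 2 or more sites the median spans were 981.5 and 868 bases. Over all loci, the median gap between neighbouring sites of a locus was 696.5 bases for TIA1 and 297 for RBFOX2. RBFOX2 sites were also wider, with a median of 102 bases against 78.

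**Figure D3:**
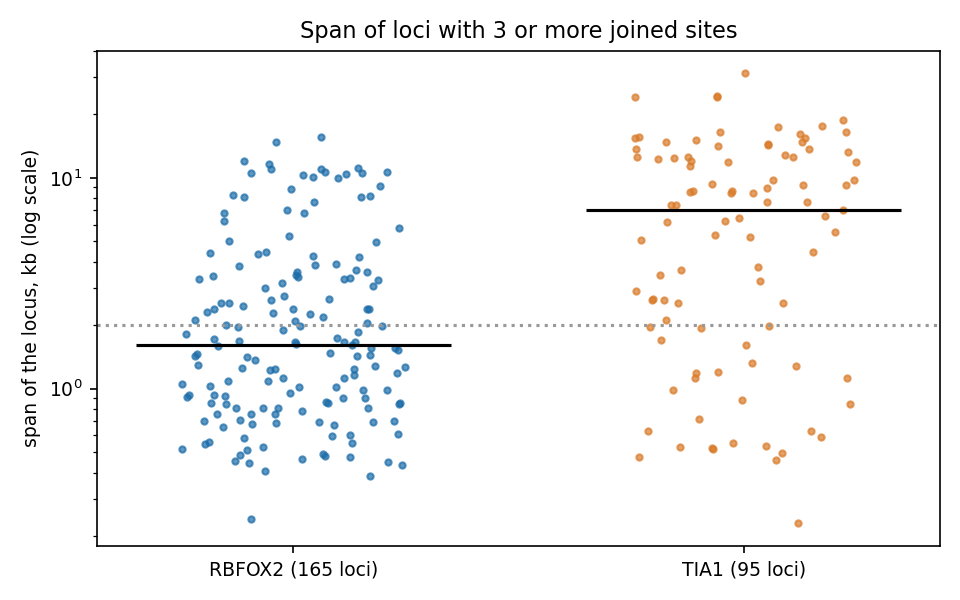
Span in kb (log scale) of each locus with 3 or more joined sites in the RBFOX2 list (165 loci) and the TIA1 list (95 loci); points are loci, spread sideways at random, black bars medians, and the dotted line marks 2 kb. The RBFOX2 median is 1602 bases and the TIA1 median 7007, and both lists have loci on either side of the line.

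**Figure D4:**
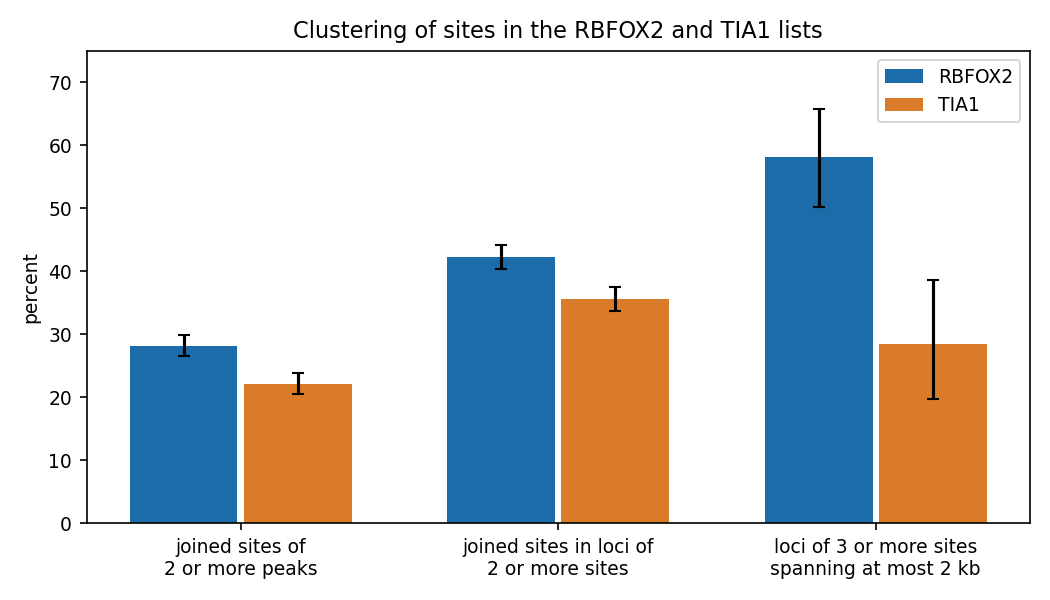
Percent of joined sites with 2 or more peaks, percent of joined sites in loci of 2 or more sites, and percent of loci with 3 or more sites that span at most 2 kb, for RBFOX2 and TIA1; bars are shares and error bars 95% Clopper-Pearson intervals. All 3 shares are higher for RBFOX2, and the last differs most, 58.2% against 28.4%.

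Of the 2749 RBFOX2 sites, 566, or 20.6%, overlapped a TIA1 site by at least 1 base on the strand. The share was 33.2% among sites of 2 or more peaks and 15.7% among sites of 1 peak, but the former are wider, with medians of 154 and 89 bases, and the part of width in this was not tested. In the locus of 8 sites on chromosome 15, 4 sites overlapped TIA1 sites, 3 of them the first 3 from the 5′ end.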

How the data were processed

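The authors deposited 1 peak list per protein, each tied by the labels to 2 clip and 2 input libraries. A row holds a position, a −log10 p-value and a log2 fold, units inferred from the deposited values, since there is no header. Per the submitters' processing notes, the tools were STAR 2.4.0i, SAMtools 1.6, cutadapt 1.14 and UMI-tools 1.0.0 and the build was hg19. No source read here names the peak caller. Depth is unknown, as the lists hold no read counts.

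Peaks within 50 bases on a strand were joined into sites, and sites within 10 kb chained into loci, with numpy 2.4.6 and pandas 2.3.3 in Python 3.11.15. Statistics used statsmodels 0.14.6 and scipy 1.17.1, and plots matplotlib 3.10.9. Covered bases are summed peak widths. Intervals of shares are Clopper-Pearson at 95%, those of differences Newcombe, and lists were compared by Fisher's exact test with Benjamini-Hochberg adjustment. Joining and chaining were tested on simulated lists with planted sites and loci, which checks the code and not whether the limits suit these data. Named were the 10 sites with most peaks, the 5 widest, the 5 widest of 1 peak, the 15 loci with most sites and the 10 with most covered bases. Members and rules were chosen with earlier results of these data known. Alternatives were other join, chain and overlap distances, a minimum width and stricter limits on −log10 p or log2 fold.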

Additional observations from a re-analysis of the deposited data

How the results depend on the processing

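No paired analysis was possible because the list joins both replicates, and no replicate could be left out for the same reason. Stricter limits left 1778 joined RBFOX2 sites at a −log10 p of at least 5 and 570 at a log2 fold of at least 4, since fewer peaks entered. The share of sites with 2 or more peaks was then 31.0% and 22.5%. It was 22.7%, 25.9% and 31.5% with joining within 0, 20 and 200 bases, and 26.4% without peaks under 20 bases. The share of sites in loci of 2 or more was 33.0%, 40.0% and 52.7% with chaining within 1, 5 and 50 kb. It was 52.1%, 46.8%, 37.3% and 31.2% with joining within 0, 20, 100 and 200 bases, since joining removes neighbours. The share overlapping TIA1 was 15.4% when at least 50% of the site had to be shared and 22.6% within 50 bases.

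The number of sites in the 15 loci with most sites moved by over 1.5 times with another chain distance in 10 cases and by less in 35. Those that moved were both wide chromosome 1 loci and, at 1 kb, the loci on chromosome 14 (2 sites), chromosome 17 minus strand (3), chromosome 12 (3) and chromosome 10 (2, also at 5 kb). All 3 differences between the lists kept their direction under every alternative run for them, and the 2 planned ones their side of the threshold. These alternatives reuse the same lists and also treat sites or loci as independent, so their p-values add no separate support. Not every alternative was run for each difference. None was compared at a log2 fold of at least 4. Sites with neighbours were compared only at other chain distances and at the stricter −log10 p. The differences ranged from 4.16 to 9.87 points for sites of several peaks, from 6.17 to 9.50 for sites with neighbours and from 15.9 to 42.0 for the span of loci. The span comparison, its alternatives and those for the place of the best-covered site were chosen after seeing the data. Location classes, GCATG and gene lists, also planned, need hg19 and were not analysed here. Peaks below the authors' limits are not seen, so a locus of 1 site may hold weaker ones.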

Other observations

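Many peaks carried exactly the same deposited value. In the RBFOX2 list 941 peaks, 22.3%, had a log2 fold equal to 9 decimals to that of at least 1 other peak, over 396 distinct values. All but 1 of these values occurred at more than 1 joined site. Whether some were also repeated within a site was not counted. The most frequent value was shared by 6 peaks. For 88 peaks both the log2 fold and the −log10 p were those of another peak, over 43 distinct pairs, and 0 of these pairs were confined to a single site. In the TIA1 list 901 peaks, 28.0%, had a repeated log2 fold. RBFOX2 peaks with a repeated fold had a median width of 76 bases, against 68 for the others.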
